A study of Arabidopsis thaliana with 24 samples.

Results

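The probe sets described here had lower signals in the leaf blades of water-grown Arabidopsis at 5 weeks than at 4 weeks, and higher signals at 5 weeks where the pots had been fed reduced glutathione or ammonium nitrate. They number 384 of the 22746 probe sets on the array, a probe set being a group of short oligonucleotides that reads 1 transcript or several similar ones. All choices used group means of log2(signal + 16). The difference between 5 and 4 weeks in water had to be -0.8 or lower. At 5 weeks, both the reduced glutathione and the ammonium nitrate mean had to lie at least 0.8 above water. The difference between 5 and 4 weeks with ammonium nitrate had to stay above -0.8. These 4 conditions held for 396 probe sets, and 12 of them were left out because they belong to genes on a list of 15 names. Every value behind these conditions is therefore a description, with no test. Of the members, 215 have 1 named gene (214 genes), 7 have several and 162 are unnamed here and are given by probe set where they are mentioned.

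The plants were wild-type Arabidopsis thaliana of the Col-0 accession, grown with 16 h of light. Pots were watered from below once a week with 25 ml of water (the control), oxidized glutathione (GSSG) at 1 mM, reduced glutathione (GSH) at 2 mM or ammonium nitrate at 3 mM, which the labels' protocol writes as NH3NO4. At 3 weeks (3W) the whole aerial part with its shoot apex was taken, and at 4 and 5 weeks (4W and 5W) the second and the third of the fully expanded leaf blades, so tissue and age differ together between 3W and the later harvests. Each of the 12 groups of harvest and solution had 2 arrays. The rule used 10 of the 24 arrays, those of water and ammonium nitrate at 4W and 5W and of GSH at 5W. The other 14 arrays, all of 3W, GSSG at 4W and 5W and GSH at 4W, gave the tests below.

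Glutathione is a tripeptide of glutamate, cysteine and glycine with which plants buffer their redox state and carry reduced sulfur, and GSSG is a pair of GSH molecules joined by a disulfide bond. Ammonium nitrate supplies mineral nitrogen, and glutathione contains nitrogen too. As a leaf blade passes from expansion to maturity, transcripts for chlorophyll synthesis and wall growth usually decline, and when nitrogen runs short, older leaves export it from their chloroplast proteins. In bulk tissue, fewer cells of a type and less RNA per cell cannot be told apart.

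Array medians ran from 154 to 192, and each array had a minimum of 1. For actin, the control read at both ends of its transcript, the 3' signal divided by the 5' signal, which rises as RNA degrades, was 4.29 to 4.81 on the 4 replicate 2 arrays of 4W and 2.65 to 3.80 on the other arrays, and its part in the comparisons with 4W was not tested. The leaf mesophyll markers measured, RCA (the activase of Rubisco) and SBPASE (an enzyme of the Calvin cycle), 2 of 10 listed, ran from 10448 to 51110 and from 3742 to 15575. The stem cell marker CLV3, 1 of 6 listed for the shoot apex, reached 38.6 at most, also in the 3W shoots, and the root markers EXPA7 and EXPA18, 2 of 5 listed, 63.3 and 94.4. Markers of flower and vasculature had no named probe set here.

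The members were split by brightness. Brighter members, 218 in number, had a mean log2 signal over all 24 arrays above the 40th percentile over the whole array (a signal of 89.6), and 166 were dimmer. In water, the median signal of the brighter members was 607 and 719 on the 4W arrays and 233 and 181 on the 5W arrays. With NH4NO3 it was 784 and 737 at 4W and 755 and 617 at 5W. The 5W water arrays were the lowest of all 24 for the brighter members. GSH gave 616 and 883 at 4W and 644 and 462 at 5W. GSSG gave 563 and 658 at 4W and 355 and 402 at 5W, between the water and the GSH arrays of 5W. At 3W, the 8 arrays of all solutions lay close together, from 418 to 478.

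The dimmer members had a median of 5.58 and 6.34 on the 5W water arrays and of 25.8 to 66.0 on the other arrays. Their levels at 5W in water were thus close to the lowest value of the arrays, and their log2 changes depend on the 16 added before the logarithm. By annotation, of the 111 dimmer members with a gene matched to the reference, 15 (13.5%) are annotated as pseudogenes, against 1 of 100 brighter members and 6.87% of all 13436 matched probe sets. The share among all dim probe sets was not computed, so nothing is read from this about the members. Genes of the brighter members are described first in what follows.

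**Figure D1:**
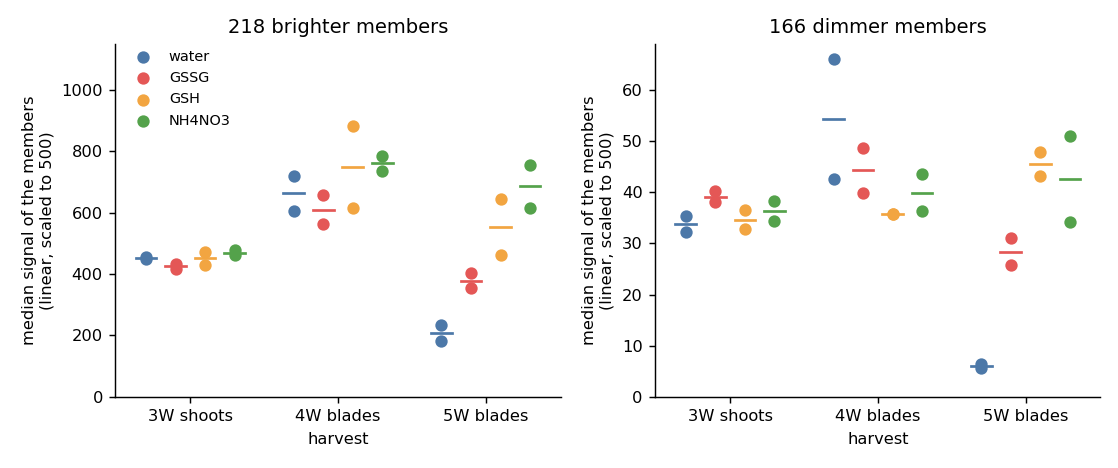
Median linear signal of the members on each array (points) and the mean of both arrays (lines) by harvest and solution, for the 218 brighter members and the 166 dimmer members. The 5W water arrays lie lowest in both panels (233 and 181, and 5.58 and 6.34), and the 5W GSSG arrays lie between water and GSH.

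The largest differences between 4W and 5W in water, among members with 1 gene and a 4W mean signal of at least 100, were those of 6 genes. AT3G14740, which encodes a zinc finger protein of the RING/PHD class, gave 169 and 183 in water at 4W and 15.6 and 9.41 at 5W. At 5W it gave 84.7 and 86.3 with GSH, 124 and 95.3 with NH4NO3, and 50.3 and 97.3 with GSSG. All 6 fed arrays of 5W lay above both water arrays and below both 4W water arrays. AT1G67910 gave 684 and 1359 in water at 4W and 119 and 166 at 5W, beside 544 and 540 with GSH and 930 and 604 with NH4NO3. Its GSSG arrays, 230 and 284 at 5W, lay above water and below both other feeds.

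WNK7, a protein kinase of the WNK family, gave 192 and 237 in water at 4W and 58.0 and 2.30 at 5W, so that the water arrays of 5W themselves differed widely. It gave 156 and 108 with GSH and 170 and 127 with NH4NO3 at 5W. NANA, an aspartic protease of the chloroplast, gave 190 and 173 in water at 4W and 2.78 and 48.1 at 5W. Its 5W values were 72.9 and 43.3 with GSH and 115 and 80.3 with NH4NO3, so the GSH arrays overlapped the water arrays. AT5G26330, of the cupredoxin family of copper-binding proteins, gave 236 and 120 in water at 4W and 36.3 and 6.67 at 5W, against 91.6 and 56.3 with GSH and 82.4 and 67.5 with NH4NO3. AT1G22330, an RNA-binding protein with an RRM domain, is measured by 2 probe sets that are both members. The gene is listed here for the water difference of 255969_at, whose signals are not given. The brighter of the pair, 255962_at, was not listed for its water difference. It gave 228 and 211 in water at 4W and 36.3 and 30.9 at 5W. With GSH it gave 112 and 55.4 at 5W, and with NH4NO3 186 and 65.7. Its fed arrays lay above water at 5W, with a wide gap between the 2 arrays of each of these feeds.

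Membership was close for some genes. UGT88A1, a glucosyltransferase of small molecules, had an NH4NO3 difference from water of 0.80, AT5G03230 a GSH difference of 0.80 and AT4G37290 an NH4NO3 difference of 0.80, all just inside. Just outside lay AT3G47800, whose difference in water was -0.798, and the unnamed probe sets 263805_at and 252441_at, whose NH4NO3 differences between 5W and 4W were -0.801 and -0.802. A left-out array also moved the count. Without replicate 2 of 5W water, 261 of the 384 members still met the conditions, and 263 did without replicate 1 of 5W NH4NO3. Other probe sets then came in: 632 met the conditions in all without replicate 2 of 5W water and 755 without its replicate 1, against 396 with both.

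The remaining feed, GSSG, took no part in the rule, so the change of the members from 4W to 5W with GSSG could be tested. But the rule asked for a fall in water between the same harvests. A change from 4W to 5W shared by all waterings would thus lower the members with GSSG too. The share of members that fell is therefore in part set by their choice. Among the 2677 probe sets with that fall in water, the share called with GSSG was not computed. With GSSG, 81 members fell and 1 rose, in limma's test over all 22746 probe sets at an adjusted p under 0.05. That is 21.1% of the members lower, where 6.33% of all probe sets were lower and 6.2% were higher. Of the 218 brighter members, 73 fell (33.5%), and the share called over all probe sets of that brightness was not computed. Both 5W GSSG arrays lay below both 4W arrays in 68.4% of the brighter members. They did so in 27.6% of all probe sets of that brightness. The median change of the members was -0.57 on the log2 scale, and -0.03 over all probe sets. The count was 43 without replicate 1 of 5W GSSG and 52 without replicate 2. Of the mesophyll markers, SBPASE fell as well (-1.44 ± 0.19, limma adjusted p = 8.49e-05) and RCA did not pass the test (-0.53 ± 0.27, limma adjusted p = 0.216), and their part in the count was not tested. The 1 member that rose, the unnamed 261285_at, gave 7955 and 7902 at 4W and 12981 and 13062 at 5W (0.71), and it lost its call without any 1 of the 4 GSSG arrays.

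Of the 81 members that fell with GSSG, 39 have 1 gene, and among these AT1G22330 had the largest fall. Its brighter probe set gave 360 and 542 at 4W with GSSG and 40.7 and 51.9 at 5W, a log2 change of -2.88 ± 0.35 (SE, 2 arrays against 2, limma adjusted p = 4.06e-05). Its other probe set changed by -2.36 ± 0.41 (limma adjusted p = 0.000889), so the pair gave the same direction. In the 5W blades the GSSG arrays were near the water arrays of this gene (36.3 and 30.9), and the GSH and NH4NO3 arrays were higher. AT3G06770, of the pectin-degrading glycosidase family, gave 1000.1 and 1382 with GSSG at 4W and 279 and 243 at 5W (-2.11 ± 0.42, limma adjusted p = 0.00251). NANA gave 218 and 299 at 4W and 48.3 and 46.6 at 5W with GSSG (-2.10 ± 0.42, limma adjusted p = 0.00248). In all these genes both 5W arrays with GSSG lay below both 4W arrays.

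AT3G19620, related to beta-xylosidases, changed by -2.15 ± 0.63 (limma adjusted p = 0.0306), from 210 and 276 to 75.2 and 20.7. WNK7 changed by -1.84 ± 0.55 (limma adjusted p = 0.0342), from 249 and 224 to 34.9 and 82.3. Each of these 2 calls was lost without any of 3 of the 4 GSSG arrays, with limma adjusted p up to 0.275. The change then ranged from -2.81 to -1.49 for AT3G19620 and from -2.31 to -1.36 for WNK7 over the 4 left-out arrays. AT1G67910 changed by -1.81 ± 0.38 (limma adjusted p = 0.00362) and AT3G14740 by -1.37 ± 0.30 (limma adjusted p = 0.00499), the latter not past the test without replicate 1 of 5W GSSG (adjusted p = 0.105). AT5G26330, the remaining gene of the 6 with the largest differences in water, changed by -0.66 ± 0.44 (limma adjusted p = 0.377), with 152 and 70.9 at 4W and 47.3 and 75.8 at 5W. Of 20 changes with GSSG that passed the test and are named here, 8 passed without each of the 4 GSSG arrays in turn. Those 8 are both probe sets of AT1G22330, AT1G67910, AT3G06770, AT3G14240, BGLU16, NANA and PORB.

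At the other end, no named member rose with GSSG. The 3 highest were PDF1.2b (2.01 ± 0.88, limma adjusted p = 0.149), AT3G13950 (1.71 ± 0.70, limma adjusted p = 0.120) and AT1G33930 (1.18 ± 0.39, limma adjusted p = 0.0537). AT1G33930 gave 5.45 and 8.51 at 4W with GSSG and 29.0 and 44.2 at 5W, where water went from 37.4 and 70.1 to 6.36 and 3.08. Its GSSG and water arrays thus stood in opposite order at the 2 harvests, all at low signal.

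**Figure D2:**
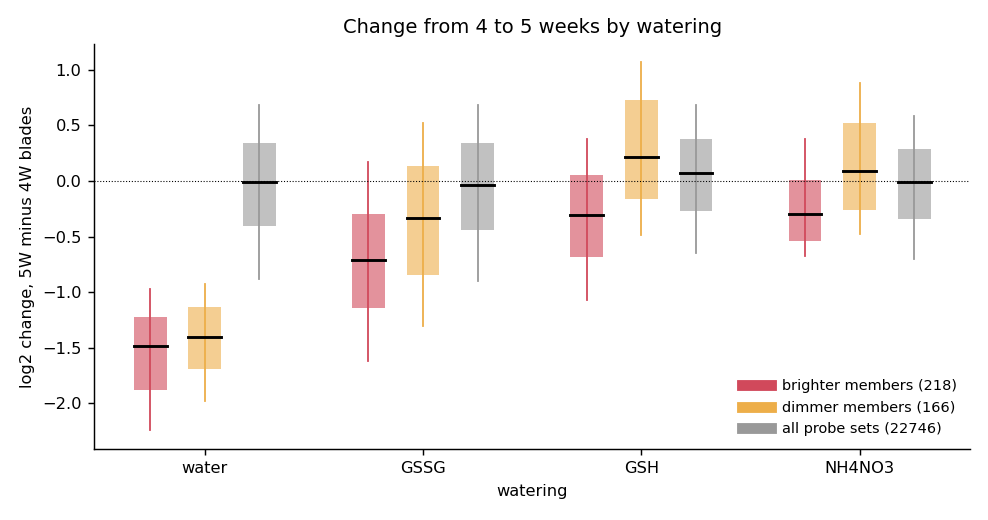
Log2 change from 4W to 5W blades in each watering, for brighter members, dimmer members and all probe sets. The black line is the median, the box runs from the 25th to the 75th percentile and the thin line the 10th to 90th percentile; the rule limited the water and NH4NO3 changes and, through the 5W level, the GSH change. The GSSG medians, which it did not use, were -0.71 (brighter) and -0.33 (dimmer), beside -1.49 and -1.40 in water and -0.30 and 0.22 with GSH.

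Set side by side, the median changes from 4W to 5W were -1.44 in water and -0.14 with NH4NO3, -0.57 with GSSG and -0.07 with GSH. The rule limited the water and NH4NO3 changes directly. It also held up the GSH change, since the 5W GSH mean had to lie at least 0.8 above water, so the order of GSSG and GSH here is in part set by the rule. The 81 members that fell with GSSG had medians of -1.69 in water, -0.58 with GSH and -0.52 with NH4NO3. The 302 members not past the test in either direction with GSSG had medians of -1.38, 0.04 and -0.03. Among brighter members, the GSH change reached -0.8 or lower in 40 of 218 (18.3%), a count that the condition on 5W GSH keeps low, and the GSSG change in 99 (45.4%). Over all probe sets of that brightness the shares were 5.72% and 9.17%. For GSH, the arrays of 5W lay wholly below those of 4W in 98 of the 384 members and wholly above in 70, where 19.7% and 28.5% of all probe sets did so. For GSSG, 203 members lay wholly below and 30 wholly above, against 27.3% and 26.7% of all probe sets. Whether the changes with GSSG and in water differ was not tested, because the water arrays chose the members.

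At 5W, the GSSG mean lay above the water mean in 376 of 384 members. Both GSSG arrays lay above both water arrays in 283, where 17.1% of all probe sets did so. The water arrays used here also chose the members, so nothing is read from this count. The median difference from water was 0.80 with GSSG, 1.19 with GSH and 1.30 with NH4NO3, the last 2 set in part by the rule. The GSSG mean was the lowest of the 3 feeds in 326 members, where the rule asked for high values of the other two feeds and not of GSSG. NH4NO3 was the highest of the 3 in 209, GSH in 158 and GSSG in 17. The mean with NH4NO3 lay above that with GSH by a median of 0.17 in the brighter members and below it, at -0.05, in the dimmer ones. GSH lay above GSSG in 348 members, and NH4NO3 above GSH in 219.

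For an account by function, 37 members with a well-known role were put into 7 groups after their values were seen, so the counts by group are a description. Chlorophyll synthesis and light harvesting had 2 members. PORB, the light-dependent protochlorophyllide oxidoreductase of chlorophyll synthesis, gave 14569 and 14742 in water at 4W and 4078 and 2916 at 5W. With GSH it gave 9052 and 6198 at 5W, with NH4NO3 10908 and 7282, and with GSSG 6335 and 6747. All fed arrays of 5W lay above both water arrays and below all 8 arrays of 4W. With GSSG, PORB fell from 18150 and 18746 at 4W by 1.49 ± 0.24 on the log2 scale (limma adjusted p = 0.000474). AT4G27450, the gene next to PORB in the reference order, is a member as well.

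LHCB4.2, an antenna protein of photosystem II, is the other member of the group. It gave 28799 and 42947 in water at 4W and 13131 and 11577 at 5W, and at 5W 30746 and 23962 with GSH, 29429 and 17985 with NH4NO3 and 21762 and 21669 with GSSG. Both water arrays of 5W lay below all 6 fed arrays. Its change with GSSG was -0.72 ± 0.30 (limma adjusted p = 0.134), with 25916 and 49161 at 4W.

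The largest group held 13 genes of the cell wall and of glycosidases, of which 7 fell with GSSG, none rose and 6 did not pass the test. BGLU16 and BGLU40 are beta-glucosidases. BGLU16 gave 1141 and 1074 in water at 4W and 422 and 262 at 5W, against 1075 and 547 with GSH and 1093 and 802 with NH4NO3. With GSSG it gave 1811 and 1302 at 4W and 441 and 426 at 5W (-1.79 ± 0.30, limma adjusted p = 0.000766), so the GSSG arrays of 5W lay just above the higher water array. BGLU40 gave 430 and 309 in water at 4W and 81.8 and 86.1 at 5W, and with GSSG it changed by -1.81 ± 0.40 (limma adjusted p = 0.00598, and 0.0988 without replicate 2 of 5W GSSG). BGLU45, related to the glucosidases that release monolignols for lignin, was dim, with 45.1 and 49.5 in water at 4W and 2.27 and 1.82 at 5W. Its GSSG change was 0.18 ± 0.43 (limma adjusted p = 0.853), and its difference from the other family members was not tested.

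CSLC04 makes the glucan backbone of xyloglucan, the main hemicellulose that ties cellulose fibres in the growing wall. It gave 1442 and 1692 in water at 4W and 609 and 303 at 5W, and at 5W 1173 and 771 with GSH and 1257 and 676 with NH4NO3. All these fed arrays lay above both water arrays. With GSSG it changed by -1.20 ± 0.31 (limma adjusted p = 0.0148, and up to 0.105 with 1 GSSG array left out). AT5G11420, a cell wall protein of the DUF642 family, changed by -1.44 ± 0.38 (limma adjusted p = 0.0177, and up to 0.133 with 1 GSSG array left out). AT1G71695, a class III peroxidase, which is a secreted enzyme, changed by -1.12 ± 0.25 (limma adjusted p = 0.00667, and up to 0.0614 likewise).

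THE1, a receptor kinase that monitors cell wall integrity, gave 540 and 691 in water at 4W and 376 and 84.7 at 5W. At 5W it gave 802 and 383 with GSH, 891 and 438 with NH4NO3 and 537 and 322 with GSSG. One of its 5W water arrays thus lay above 1 GSSG array and near 1 GSH array. Its GSSG change was -1.08 ± 0.56 (limma adjusted p = 0.236). From a list of 21 genes of wall loosening, 8 were measured, 1 rose (EXPA4) and 3 fell (EXPA8, EXPB3 and XTH16) with GSSG, and none of the 8 is a member. The list median was -1.01. EXPA8 is among the names left out, and it did not meet the rule either, with an NH4NO3 change from 4W to 5W of -1.65.

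Proteases and their inhibitors had 6 genes, of which 3 fell with GSSG and none rose. NANA is described above. AT3G14240, a subtilase, which is a secreted serine protease, gave 888 and 707 in water at 4W and 334 and 264 at 5W, against 660 and 433 with GSH and 624 and 472 with NH4NO3. With GSSG it fell from 1112 and 921 to 489 and 405 (-1.16 ± 0.22, limma adjusted p = 0.00193). AT5G47550, a cystatin, which inhibits cysteine proteases, changed by -0.82 ± 0.23 (limma adjusted p = 0.0211, and up to 0.251 with 1 GSSG array left out). The serine carboxypeptidase-like genes scpl16 and scpl46 changed by -1.21 ± 0.49 (limma adjusted p = 0.121) and -0.57 ± 0.25 (limma adjusted p = 0.153).

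The GDSL lipase family, secreted esterases with a shared active-site motif, had 4 genes, of which AT1G09390 (-1.44 ± 0.32) and AT4G01130 (-1.03 ± 0.27) fell with GSSG by limma and 2 did not pass. Without 1 GSSG array the limma adjusted p reached 0.0749 and 0.157. The sugar transporters SWEET2 and SWEET7 were both dim. SWEET2 gave 107 and 79.4 in water at 4W and 36.0 and 2.75 at 5W, and SWEET7 gave 26.6 and 28.3 and then 4.90 and 2.24. Neither passed the GSSG test (-0.43 ± 0.47 and -1.04 ± 0.71).

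**Figure D3:**
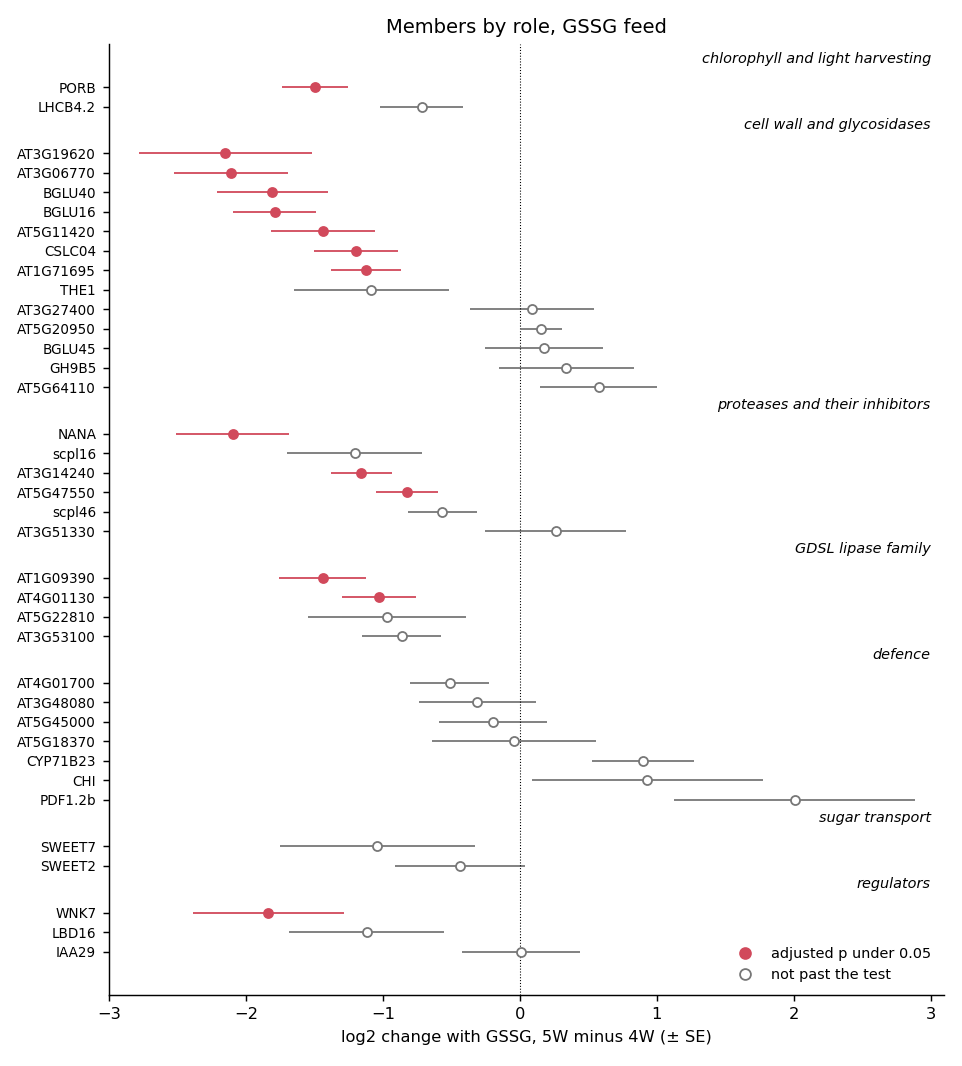
Log2 change with GSSG from 4W to 5W (point, with its SE as a bar; 2 arrays against 2) of the 37 members grouped by role, filled where limma's adjusted p over all 22746 probe sets was under 0.05. In the defence group none of 7 passed the test, and in the cell wall and glycosidase group 7 of 13 did, all below 0. By the same test 21.1% of all members and 6.33% of all probe sets were lower. The groups were chosen after their values were seen, and their difference was not tested.

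The 7 genes put in the defence group had a median change with GSSG of -0.04, and none passed the test in either direction. CYP71B23, a cytochrome P450, gave 708 and 809 in water at 4W and 262 and 289 at 5W. At 5W it gave 670 and 855 with GSH and 797 and 1494 with NH4NO3. With GSSG it gave 209 and 442 at 4W and 546 and 622 at 5W, so that both GSSG arrays of 5W lay above both of 4W (0.90 ± 0.37, limma adjusted p = 0.124). At 4W its GSSG arrays lay below the water arrays, and at 5W above them.

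AT3G48080 encodes an EDS1 family regulator of immunity. It has a close copy on the same chromosome, so its probe set may read both. It gave 354 and 305 in water at 4W and 89.9 and 118 at 5W, beside 267 and 291 with GSH and 344 and 428 with NH4NO3 at 5W. Its GSSG arrays gave 190 and 210 at 4W and 129 and 193 at 5W (-0.31 ± 0.43, limma adjusted p = 0.718). AT4G01700, of the chitinase family, gave 278 and 334 in water at 4W and 142 and 123 at 5W, with a GSSG change of -0.51 ± 0.29 (limma adjusted p = 0.284). In both genes the GSH and NH4NO3 arrays of 5W lay above both water arrays. In all 7 defence genes the 5W mean with NH4NO3 was above that with GSH. It was so too in all 3 regulators and in the 2 sugar transporters. The same held in 9 of the 13 wall genes and 5 of the 6 protease genes. It held in 2 of the 4 GDSL genes and 1 of the 2 genes of chlorophyll and light harvesting. Among all 384 members it was so in 219, and among all probe sets in 46.0%.

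Single arrays were high in the other well-known defence genes. CHI, a chitinase, gave 561 and 228 in water at 4W and 92.7 and 56.2 at 5W, but 182 and 1363 with GSH at 4W and 164 and 1144 with NH4NO3 at 5W. PDF1.2b, a defensin whose probe set is marked as reading more than 1 transcript, gave 315 and 4046 in water at 4W and 870 and 432 at 5W. In these 2 genes, arrays of 1 group thus differed from each other by several fold, which limits what their group means show.

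Of the 3 genes put in the group of regulators, 1 fell with GSSG (WNK7, described above) and none rose. IAA29, an Aux/IAA repressor of auxin signalling, gave 182 and 211 in water at 4W and 42.0 and 57.0 at 5W. With GSSG it gave 128 and 180 at 4W and 146 and 161 at 5W (0.01 ± 0.43, limma adjusted p = 0.994). It is the 1 member among 3 measured genes of a list of 8 auxin-response genes. GH3.5, an auxin-conjugating enzyme that is no member, rose with GSSG (1.47 ± 0.39, limma adjusted p = 0.0176). LBD16, a LOB-domain transcription factor, was dim, with 23.3 and 75.8 in water at 4W and 4.13 and 5.88 at 5W (GSSG change -1.12 ± 0.57, limma adjusted p = 0.219).

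From a list of 43 genes of nitrate response and nitrogen assimilation, 6 were measured and none is a member; 4 of the names left out by the rule (AT2G26690, AT1G68670, AT1G25550 and AT4G37180) are on it. With GSSG, 2 of the 6 fell, AT2G26690 and AT1G25550. Of a list of 15 leaf senescence genes, 3 were measured, none is a member and none passed the GSSG test. Of 17 clock genes, 1 was measured and did not pass. Lists of 17 salicylate defence genes and 6 genes of sugar starvation had no named probe set here. The lists therefore say little of most of the 384 members, and each was read through few genes.

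At 4W, before the difference that defines the set, the members were compared between the 2 forms of glutathione. With GSSG minus GSH, 1 member passed limma's test, the unnamed 256431_s_at, which gave 354 and 482 with GSSG and 1162 and 2015 with GSH (-1.85 ± 0.28, limma adjusted p = 0.0298). Of all 22746 probe sets, 2 passed (0.00879%). At an unadjusted p under 0.05, 19 members were higher and 30 lower with GSSG (12.8% of members), where 6.77% of all probe sets passed in either direction. This call was lost without replicate 1 of 4W GSSG (limma adjusted p = 0.0767), without replicate 2 of it (limma adjusted p = 0.222) and without replicate 2 of 4W GSH (limma adjusted p = 0.405). Against water, which the rule used, the median member difference at 4W was -0.03 with GSSG, -0.14 with GSH and -0.03 with NH4NO3. Brighter members had medians of 0.09, 0.06 and 0.12, and dimmer members of -0.33, -0.47 and -0.39.

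In the 3W shoots, none of the members passed limma's test between any fed solution and water, and 0% of all probe sets did. At an unadjusted p under 0.05, 11 members were higher and 3 lower with GSSG, 6 higher and 4 lower with GSH, and 6 higher and 6 lower with NH4NO3. Of all probe sets, 2.63%, 2.22% and 2.69% passed that threshold in either direction. The median member difference from water was 0.06, 0.04 and 0.09. PORB gave 9806 and 12666 in water, 10230 and 11729 with GSSG, 13400 and 12310 with GSH and 12540 and 9702 with NH4NO3. These 8 arrays overlapped across all solutions. A p that misses the threshold does not show that the members were alike.

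**Figure D4:**
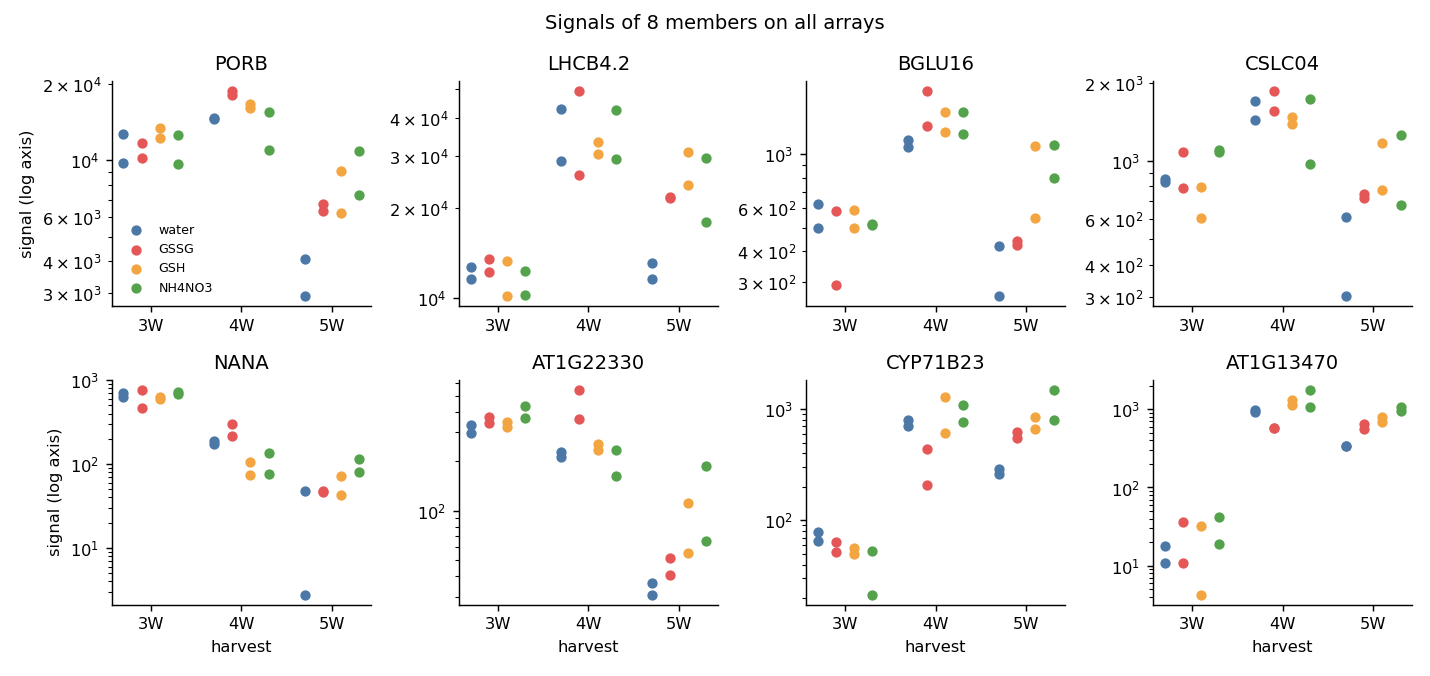
Signal of 8 members on every array (log axis), by harvest and by solution; each point is 1 array, and AT1G22330 is drawn from its brighter probe set. At 5W both water arrays lie below all fed arrays in PORB, LHCB4.2, CYP71B23 and AT1G13470, and also in BGLU16 and AT1G22330. In NANA a water array (48.1) reaches the GSSG and GSH arrays.

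The members were also compared between the expanded blades of 4W and the shoots of 3W, over the GSSG-fed and GSH-fed arrays that the rule did not use. In limma's test 139 members (36.2%) were higher in blades and 73 (19.0%) were lower, where 20.9% of all probe sets were higher and 25.2% lower. Among brighter members 118 were higher and 46 lower, and the share called over all probe sets of that brightness was not computed. With GSSG, the 4W arrays lay wholly above those of 3W in 59.2% of brighter members and wholly below in 22.9%. Over all probe sets of that brightness the shares were 37.8% and 39.1%. The median difference was 0.33 for all members, 0.76 for the brighter ones and 0.00 over all probe sets. A member had to be well above the low end of the arrays in 4W water blades to meet the rule, so its share higher in blades is in part set by the choice of members. Members lay on both sides of this comparison. Age and tissue cannot be told apart in it.

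The highest named members in blades were AT1G13470, AT1G12010, AT3G19850, AT3G28310, AT5G19240 and AT5G35480, with differences of 3.16 to 4.63. AT1G13470, a protein of the DUF1262 family, gave 35.8 and 11.0 with GSSG and 4.29 and 32.4 with GSH in shoots, and 572 and 579 with GSSG and 1122 and 1296 with GSH in blades (4.63 ± 0.25, limma adjusted p = 9.59e-12). At 5W it gave 334 and 340 in water, 562 and 637 with GSSG, 693 and 805 with GSH and 935 and 1056 with NH4NO3. These 4 solutions did not overlap, and their levels stood in that order. With GSSG it did not pass the test from 4W to 5W (0.05 ± 0.35, limma adjusted p = 0.948).

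AT1G12010, of the ACC oxidase family, whose enzymes make ethylene, gave 2.55 to 16.7 in the GSSG-fed and GSH-fed shoots and 315 to 379 in the blades of 4W (3.92 ± 0.42, limma adjusted p = 1.24e-07). In water it gave 258 and 178 at 4W and 145 and 15.9 at 5W, while the 6 fed arrays of 5W lay between 233 and 383. AT3G19850, of the NPH3 family of phototropism-related proteins, was higher in blades by 3.77 ± 0.18 (limma adjusted p = 1.83e-12), and it fell with GSSG from 2002 and 1585 at 4W to 758 and 874 at 5W (-1.12 ± 0.25, limma adjusted p = 0.00639, and up to 0.0709 with 1 GSSG array left out). AT5G19240, which encodes a GPI-anchored glycoprotein, was higher in blades by 3.23 ± 0.27 (limma adjusted p = 3.56e-09). The defence genes CYP71B23 (2.92 ± 0.26) and AT3G48080 (2.69 ± 0.30) were among the 5 of 7 in their group that were higher in blades by limma, and none was lower.

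The lowest named members in blades were AT5G64110, AT1G63100, AT5G48310, AT1G61450, AT5G13520 and AT5G02440, with differences of -4.71 to -2.74. AT5G64110, a class III peroxidase, gave 552 to 808 in the shoots with GSSG or GSH and 4.39 to 13.4 in the blades of 4W (-4.71 ± 0.30, limma adjusted p = 8.74e-11). In water it gave 25.7 and 63.7 at 4W and 4.93 and 3.38 at 5W, so its membership rests on signals near the low end of the arrays. AT1G63100, a GRAS family transcription factor, gave 971 to 1360 in those shoots and 50.6 to 108 in those blades (-3.67 ± 0.35, limma adjusted p = 2.24e-08). NANA was lower in blades too (-1.88 ± 0.29, limma adjusted p = 1.95e-05), as was AT3G14240 (-1.62 ± 0.16, limma adjusted p = 3.03e-08). PORB (0.55 ± 0.17, limma adjusted p = 0.0104), LHCB4.2 (1.46 ± 0.21, limma adjusted p = 9.12e-06), BGLU16 (1.57 ± 0.21) and CSLC04 (0.95 ± 0.22) were higher in blades by limma. In the wall group 3 of 13 were higher and 5 lower.

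**Figure D5:**
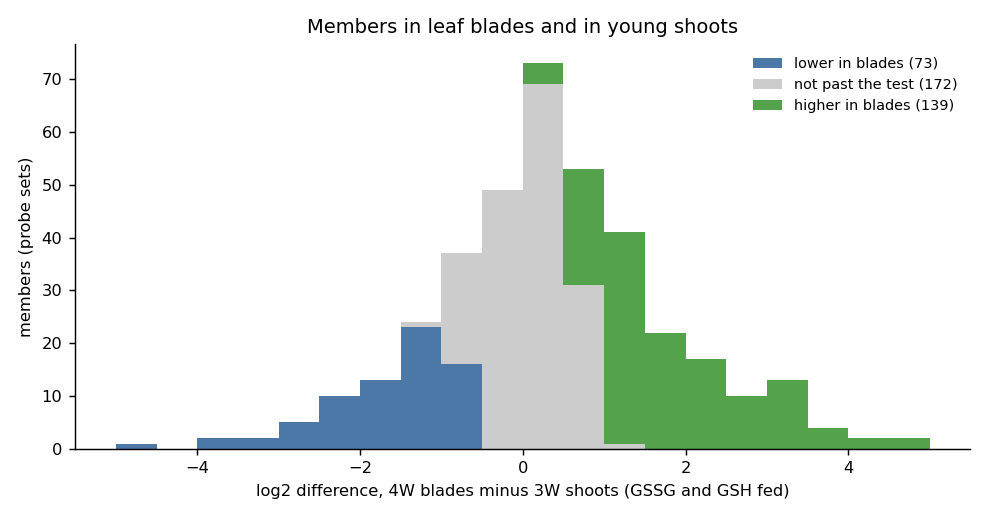
Number of members by their log2 difference between 4W blades and 3W shoots, over GSSG-fed and GSH-fed plants (4 arrays against 4), coloured by limma's adjusted p under 0.05. Of 384 members, 139 were higher in blades, 73 lower and 172 not past the test.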

How the data were processed

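Transcripts of 24 RNA samples were measured on Affymetrix arrays, 1 array each, after biotin labelling of 100 ng of total RNA, per the labels' protocols. Each deposited value is a linear intensity, 1 per probe set and array, made by the authors with Affymetrix Expression Console, per the submitters' processing notes. Which algorithm summarised the probes is not given in the sources used here. Each array's trimmed mean (2% at each end) was 500.044 to 500.055, so no further normalization was added. Groups and replicate numbers came from the titles. The labels do not say whether replicates came from separate plants or pots, so p-values measure the spread between these samples only, which may be technical, and 2 arrays per group limit the precision.

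The 64 control probe sets were left out. log2(signal + 16) of the other 22746 was fitted with 1 mean per group over all 24 arrays in limma 3.58.1 (R 4.3.3; 12 residual and 7.39 prior degrees of freedom, intensity trend), with Benjamini-Hochberg adjustment over all probe sets and a threshold of 0.05. Fold changes are on that log2 scale and understate dim probe sets. The procedure was tested on simulated data. Tables were made with pandas 2.3.3 and numpy 2.4.6, plots with matplotlib 3.10.9, in Python 3.11.15. Gene names came from the platform annotation, updated to TAIR10.1; 211 of the 215 members with 1 gene matched.

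The members and the gene lists were chosen with earlier results of these data known. The rule for named genes took the 6 largest differences in water, up to 6 called in each direction of a test, the 3 highest and 3 lowest changes with GSSG, gene families with at least 2 members, the 3 members nearest the thresholds, members of the lists, and up to 12 textbook genes; the latter and the other genes in the groups by role were chosen after their values were seen. Promoter motifs were not analysed here. Alternatives covered normalization, pseudocount, filter, variance prior, a replicate block, the arrays fitted and leaving out each array.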

Additional observations from a re-analysis of the deposited data

How the results depend on the processing

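Of the 384 members, 153 still met the conditions with a pseudocount of 64, 148 of them brighter members, and between 261 and 361 with 1 array left out. With a pseudocount of 1, 938 probe sets met the conditions in all, 367 of them members. The count of members that changed with GSSG from 4W to 5W was 82 as reported, 43 and 52 without either array of 5W GSSG (43 to 65 with any array left out), 56 with only the arrays compared and 96 with a replicate block. The median change with GSSG, -0.57, was -0.45 with quantile normalization, -0.71 without the dimmer probe sets, -0.69 with a pseudocount of 1, -0.39 with one of 64 and -0.68 to -0.48 with an array left out; the cause was not tested. The 1 call between GSSG and GSH at 4W became 0 without the intensity trend and with only the arrays compared, and 0 to 6 with an array left out. No member was called at 3W under any setting run. The blade and shoot count of 212 was 219 with the replicate block and 188 to 206 with an array left out. No named call reversed. Replicate numbers were not taken as pairs, since the labels do not say what they share and there are only 2; deviations of equally numbered arrays correlated at 0.022 between GSSG at 4W and 5W, at 0.268 between GSSG and GSH at 4W, and within a harvest at 0.049 to 0.249 (3W), 0.242 to 0.394 (4W) and 0.116 to 0.399 (5W). The replicate block left the GSSG against GSH count at 1 and the 3W counts at 0.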
